A study of Mus musculus with 3 samples.

Results

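Metallothioneins and the genes that handle zinc around them were followed across 3 arrays of mouse muscle RNA. The set held Mt1, Mt2, Mt3 and Mt4, the transcription factor gene Mtf1, and the zinc transporter genes Slc30a1 and Slc39a14. Members were all probes that are not controls and whose gene name in the scanner files is 1 of these 7 symbols. They came to 7 of 27665 genes and 13 of 41169 probes, on 22 spots. The symbols were chosen for the role of their genes and selected on log2 ratios of these same arrays, in which Mt1 and Mt2 stood high, so the values below are a description.

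The arrays came from male mice labelled 6 weeks old. In the first group the mice swam and ate food with 0.5% Chlorella powder, a unicellular green alga. In the second group they swam on normal food, and in the third they did not swim and ate normal food. Muscle was taken after 14 days, and the labels do not name it further. RNA of 10 mice was pooled per group, labelled with Cy3 and put on 1 single-colour Agilent array, so there was no replicate and no test between groups. The groups are called Chlorella swimming, swimming and nonswimming below. Swimming against nonswimming shares the swimming array with Chlorella swimming against swimming, and the nonswimming array with Chlorella swimming against nonswimming, so the 3 comparisons are not independent.

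Metallothioneins are small proteins rich in cysteine that bind zinc and copper. Mt1 and Mt2 are made in most tissues and are induced by metals, by glucocorticoids and by inflammatory signals. Mt3 is known from brain and Mt4 from stratified squamous epithelium. MTF-1, the product of Mtf1, senses free zinc and binds metal response elements in the promoters of Mt1, Mt2 and Slc30a1. The Slc30a1 protein, ZnT1, carries zinc out of the cell, and the Slc39a14 protein, ZIP14, carries zinc, iron and manganese in and is induced by interleukin 6 in liver.

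The 4 metallothionein genes stood next to each other on chromosome 8, in the order Mt4, Mt3, Mt2, Mt1, with 0 other protein-coding genes between them in the RefSeq gene table. Their probes spanned 41932 bases, from 92727283 to 92769214 as the scanner files number them. Their genome build was not given in the sources used here. RefSeq promoter windows of build GRCm38.p6, from 250 bases before to 50 after the start of a gene, were held for 6 of the 7 genes. Slc39a14 had no entry. The windows of Mt1 and Mt2, the pair past 2-fold, and of Slc30a1, another gene of the metal response, are shown 5′ to 3′ on the plus strand. Capitals mark matches to the core of the metal response element, searched as TGCACNC and TGCGCNC on both strands. No other motif was searched, and the matches printed did not overlap each other.
Mt1, chr8:94178839-94179138: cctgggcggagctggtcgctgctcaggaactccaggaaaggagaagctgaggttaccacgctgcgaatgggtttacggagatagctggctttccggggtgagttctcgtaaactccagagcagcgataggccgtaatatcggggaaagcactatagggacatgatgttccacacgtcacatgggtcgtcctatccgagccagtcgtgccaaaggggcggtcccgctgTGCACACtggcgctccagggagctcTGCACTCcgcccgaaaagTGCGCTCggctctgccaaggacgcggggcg
Mt2, chr8:94172368-94172667: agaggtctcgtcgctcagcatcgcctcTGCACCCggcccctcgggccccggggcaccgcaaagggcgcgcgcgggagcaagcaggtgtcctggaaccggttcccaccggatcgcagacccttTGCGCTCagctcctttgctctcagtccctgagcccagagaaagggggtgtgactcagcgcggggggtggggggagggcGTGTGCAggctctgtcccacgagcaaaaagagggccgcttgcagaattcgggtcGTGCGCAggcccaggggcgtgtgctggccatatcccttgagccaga
Slc30a1, chr1:191906531-191906830: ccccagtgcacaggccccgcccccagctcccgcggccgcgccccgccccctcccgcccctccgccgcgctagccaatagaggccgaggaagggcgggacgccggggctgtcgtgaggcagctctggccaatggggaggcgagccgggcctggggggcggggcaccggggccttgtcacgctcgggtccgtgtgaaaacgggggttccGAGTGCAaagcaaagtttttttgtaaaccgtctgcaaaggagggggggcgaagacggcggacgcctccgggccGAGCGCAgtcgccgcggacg

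The Mt2 window held 4 matches, the Mt1 window 3 and the Slc30a1 window 2. The Mt3 and Mt4 windows held 1 each, and the Mtf1 window 0. Of 32851 promoter windows of that length in the table, 25.7% held at least 1 match, 7.11% at least 2, 1.97% at least 3 and 0.517% at least 4. A match is a string of letters and was not measured as a bound site. Each window follows the start of the gene in RefSeq, so the counts depend on that start. In Mt1 the matches began at -23, 3 and 21 from it. Matches outside a window were not counted.

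Levels are the processed signal of the scanner software, in intensity units. For comparisons each signal was divided by its array's 75th percentile over all probes, at 237.8 for Chlorella swimming, 295.0 for swimming and 285.9 for nonswimming. Ratios are log2 of these scaled signals, the first group named over the second. The error printed after ± combines the errors that the scanner software gives each spot; differences between mice are not part of it. A gene counted as past 2-fold only where both arrays read it well above background, and its brightest probe stood for it. Different probes bind with different strength, so no level of a gene is set against that of another. Of the 13 probes, 11 were well above background on all 3 arrays.

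Mt1 and Mt2 were far higher in Chlorella swimming than in swimming muscle, and the other 5 genes stayed under 2-fold. By count, 2 of 7 genes were at least 2-fold higher in Chlorella swimming against swimming, where 1.37% of 15508 genes were, and 0 were at least 2-fold lower, where 4.86% were. In Chlorella swimming against nonswimming 2 of 7 were higher, where 2.07% of 15336 genes were, and 0 lower, where 1.49% were. In swimming against nonswimming 0 of 7 were higher, where 5.14% of 15661 genes were, and 0 lower, where 1.07% were. Since these ratios bore on the choice of genes, nothing is read from the counts. The median log2 ratio of the 7 genes was 0.12, -0.08 and 0.00 in Chlorella swimming against swimming, swimming against nonswimming and Chlorella swimming against nonswimming. Over all measured genes it was 0.08, -0.04 and 0.04 in the same order, so the members' median was close to that of all genes and the 2 large values belonged to Mt1 and Mt2. In pooled tissue, fewer cells of a type and less RNA per cell cannot be told apart.

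**Figure D1:**
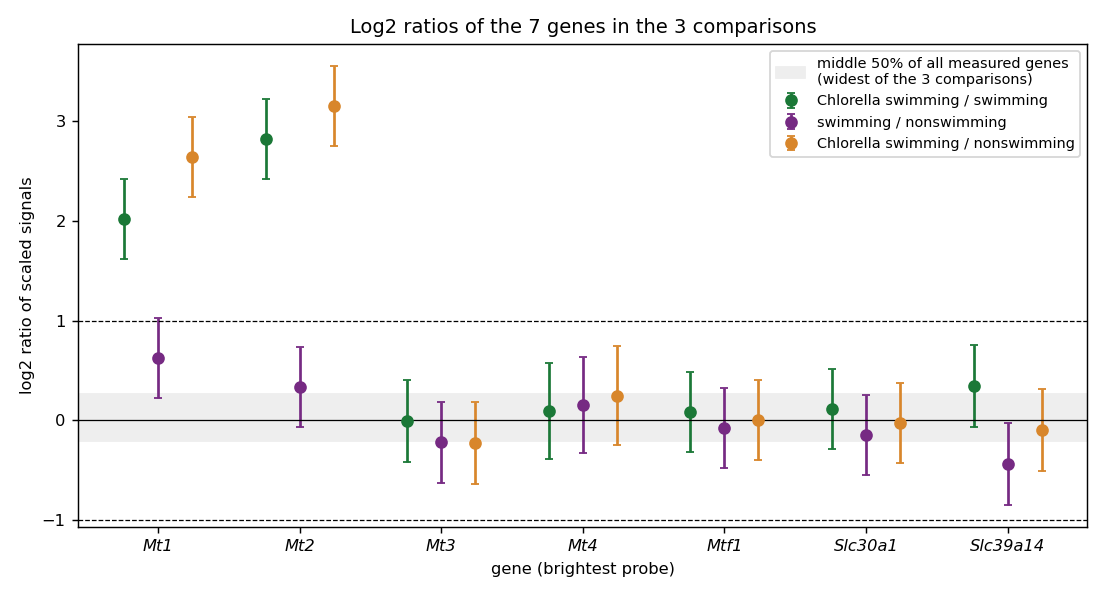
Log2 ratios of the 7 genes by their brightest probe, with 95% limits of the scanner error. The grey band is the widest middle 50% of all measured genes and dashed lines mark 2-fold. Mt1 and Mt2 pass 2-fold in the comparisons with the Chlorella swimming array, and the other 5 genes in none.

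Mt2 had a signal of 19702 on the Chlorella swimming array, 3473 on the swimming and 2672 on the nonswimming array. Chlorella swimming thus stood apart, and the normal food arrays lay close to each other. Against swimming, the Mt2 level was 7.04-fold higher, a log2 ratio of 2.82 ± 0.20. Against nonswimming, it was 8.87-fold higher, at 3.15 ± 0.20. Only 4 of 15508 genes measured on both arrays had a larger ratio than Mt2 in Chlorella swimming against swimming, and 4 of 15336 in Chlorella swimming against nonswimming. Swimming against nonswimming gave Mt2 a ratio of 0.33 ± 0.20, inside the 95% limits of the scanner error around 0. The Mt2 probe, A_51_P246317, lies on chromosome 8 from 92762515 to 92762574 in the scanner file coordinates.

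**Figure D2:**
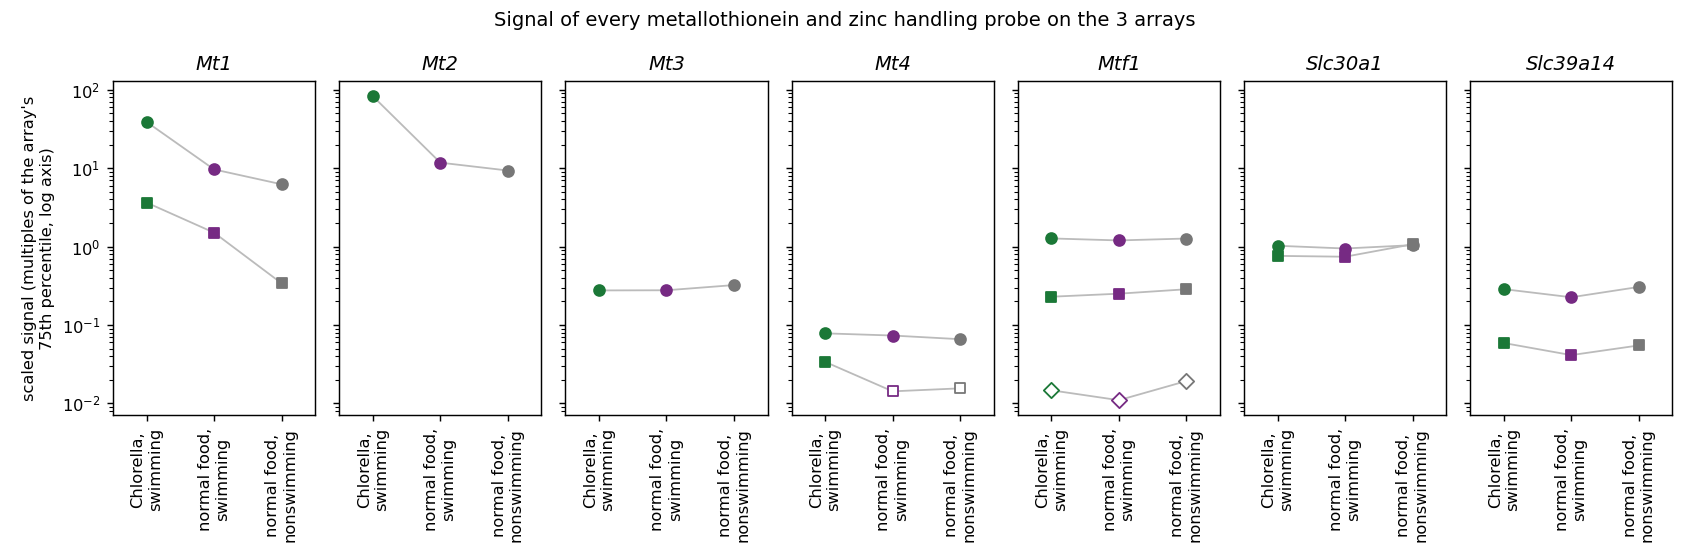
Scaled signal of all 13 probes, in multiples of each array's 75th percentile on a log axis, by array. Each symbol shape is 1 probe of the gene, and open symbols are not well above background. Mt1 and Mt2 are highest on the Chlorella swimming array with every probe. The probes of the other genes differ less, the second Mt4 probe the most among them, with only its Chlorella swimming value filled.

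Mt1 had the same order of arrays. Its brighter probe, A_51_P294979, was printed as 10 spots on every array, which gives the technical spread directly. The 10 spots ranged from 8776 to 9850 with a median of 9105 on the Chlorella swimming array, from 2752 to 2989 with a median of 2819 on the swimming one, and from 1715 to 1856 with a median of 1792 on the nonswimming array. The spots of the 3 arrays did not overlap. The coefficient of variation between spots was 3.76%, 3.37% and 2.76% on these arrays, which is smaller than the 10% set in the file headers for the scanner software's error. It covers spotting and scanning only.

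Averaged over the spots, Mt1 was 4.03-fold higher in Chlorella swimming than in swimming muscle, a log2 ratio of 2.01 ± 0.20. Spot by spot that ratio ran from 1.97 to 2.04. Against nonswimming, Mt1 in Chlorella swimming was 6.24-fold higher, at 2.64 ± 0.20. Swimming against nonswimming gave 0.63 ± 0.20, or 1.55-fold, with single spots between 0.57 and 0.67. That lies beyond the 95% limits of the scanner error but under the 2-fold rule, and Mt1 ranked 1367 from the top among 15661 genes measured on both arrays.

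**Figure D3:**
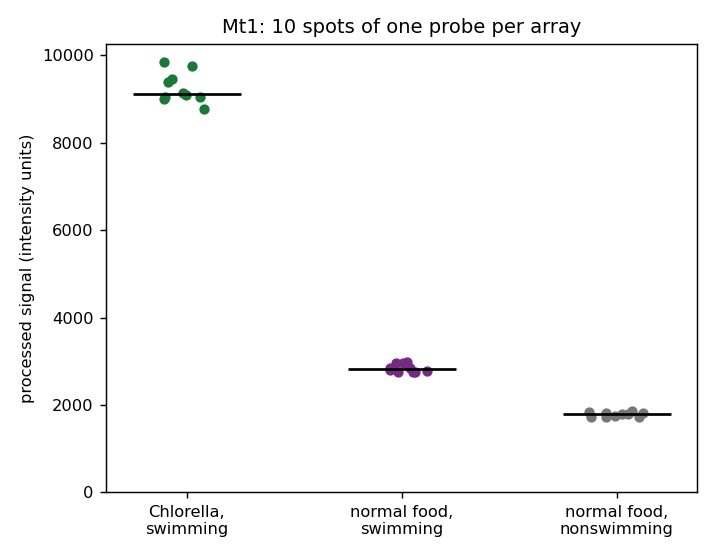
Processed signal in intensity units of the 10 spots of the brighter Mt1 probe on each array, with the median as a line. Spots of 1 array share 1 pooled sample and are not replicates of a group. Medians are 9105 on the Chlorella swimming, 2819 on the swimming and 1792 on the nonswimming array.

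The second Mt1 probe, A_52_P423810, ordered the arrays alike but differed in size. It lies from 92768988 to 92769047 on chromosome 8, 107 bases before the brighter probe, which runs from 92769155 to 92769214. Its signal was 865.8 on the Chlorella swimming array, 443.8 on the swimming and 97.32 on the nonswimming array. Here the step between the normal food arrays was the larger one. Swimming against nonswimming was 4.42-fold higher at this probe (2.14 ± 0.21), against 1.55-fold at the brighter probe. Chlorella swimming against swimming was 2.42-fold higher at this probe (1.28 ± 0.20), against 4.03-fold at the brighter probe. Both probes put Mt1 past 2-fold in each comparison that holds the Chlorella swimming array, but they differ on whether swimming on normal food did so.

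This disagreement changes the Mt1 call in swimming against nonswimming. With the mean over both probes the Mt1 log2 ratio there was 1.39, past the 2-fold rule. The difference in the authors' deposited table was 1.40. In Chlorella swimming against swimming the mean over both probes gave 1.64, and the authors' deposited table gave 1.62.

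Mt3 did not follow Mt1 and Mt2. Its signal was 65.61 on the Chlorella swimming array, 81.73 on the swimming and 92.28 on the nonswimming array. After scaling, Chlorella swimming against swimming was -0.01 ± 0.21, and swimming against nonswimming was -0.22 ± 0.21. Chlorella swimming against nonswimming was -0.23 ± 0.21, so no Mt3 ratio lay beyond the 95% limits of the scanner error. The Mt3 probe lies on chromosome 8 from 92743071 to 92743130.

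Mt4 was dim on every array. The signal of its brighter probe was 18.58 on the Chlorella swimming array, 21.62 on the swimming and 18.81 on the nonswimming array. Its log2 ratios were 0.09 ± 0.25 for Chlorella swimming against swimming, 0.16 ± 0.25 for swimming against nonswimming and 0.25 ± 0.25 for Chlorella swimming against nonswimming. Its second probe was well above background only on the Chlorella swimming array, with a signal of 8.03, against 4.20 on the swimming and 4.44 on the nonswimming array. That gives a bound: Chlorella swimming was at least 1.72-fold higher than swimming and at least 1.495-fold higher than nonswimming. A bound sets the bright signal against the higher of the dim probe's own signal and the lowest signal well above background on the dim array, after scaling. Both bounds are under 2-fold and rest on signals near background, and the ratios of the brighter probe were smaller.

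The genes that flank the metallothionein genes and were measured on all 3 arrays stayed under 2-fold. Nup93, a nuclear pore gene next to Mt1, had a log2 ratio of 0.10 ± 0.20 in Chlorella swimming against swimming, and Bbs2, a ciliary trafficking gene next to Mt4, had -0.38 ± 0.21. Of the 8 nearest protein-coding genes, 4 on each side, 6 were measured on all 3 arrays, and their ratios in this comparison lay between -0.38 and 0.32. Slc12a3, the sodium chloride cotransporter of the kidney, was detected above background on the swimming array alone, with 27.3, against 1.64 on the Chlorella swimming and 1.63 on the nonswimming array. By its bounds it was at least 3.52-fold lower in Chlorella swimming than in swimming, and at least 4.11-fold higher in swimming than in nonswimming. Nlrc5 had no probe under that name. Of the 4 metallothionein genes, the 2 at one end of the group, Mt2 and Mt1, passed 2-fold.

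**Figure D4:**
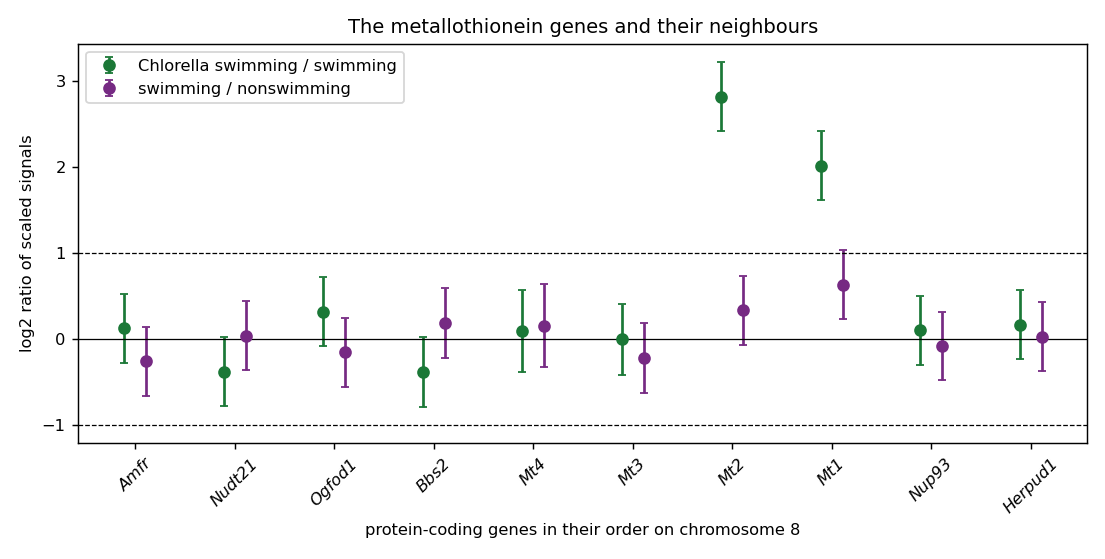
Log2 ratios, with 95% limits of the scanner error, of the metallothionein genes and the measured neighbouring protein-coding genes in their order on chromosome 8. Dashed lines mark 2-fold. In Chlorella swimming against swimming, Mt2 (2.82) and Mt1 (2.01) are past 2-fold, and the neighbours lie between -0.38 and 0.32.

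Mtf1, the zinc sensor, was flat. Its brightest probe had a signal of 302.1 on the Chlorella swimming array, 353.5 on the swimming and 362.3 on the nonswimming array. Chlorella swimming against swimming was 0.08 ± 0.20, swimming against nonswimming was -0.08 ± 0.20 and Chlorella swimming against nonswimming was 0.00 ± 0.20. A second probe gave -0.13, -0.19 and -0.32 in the same comparisons, all with an error of 0.21. The remaining probe was not well above background on any array. The probes lie on chromosome 4 between 124249624 and 124293827.

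Slc30a1, the zinc exporter, was not higher beside Mt1 and Mt2. The signal of its brighter probe was 243.6 on the Chlorella swimming array, 278.8 on the swimming and 298.2 on the nonswimming array. Its log2 ratio was 0.12 ± 0.20 in Chlorella swimming against swimming, -0.14 ± 0.20 in swimming against nonswimming and -0.03 ± 0.20 in Chlorella swimming against nonswimming. The second probe had 181.0 on the Chlorella swimming array, 218.9 on the swimming and 306.0 on the nonswimming array. It gave 0.04 ± 0.20 in Chlorella swimming against swimming, but -0.53 ± 0.20 in swimming against nonswimming and -0.49 ± 0.20 in Chlorella swimming against nonswimming. The probes lie on chromosome 1, from 191462639 to 191462698 and from 191465806 to 191465865. Only the second one put swimming and Chlorella swimming below nonswimming beyond the 95% limits of the scanner error, and neither passed 2-fold.

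Slc39a14, the importer ZIP14, was lowest on the swimming array after scaling. The signal of its brighter probe was 68.09 on the Chlorella swimming array, 66.56 on the swimming and 87.33 on the nonswimming array. Swimming against nonswimming was -0.44 ± 0.21, and both probes gave this direction, the second with -0.41 ± 0.29. Chlorella swimming against swimming was 0.34 ± 0.21 with the brighter and 0.51 ± 0.29 with the dimmer probe. Chlorella swimming and nonswimming were close, at -0.09 ± 0.21. Of these ratios only the brighter probe's in swimming against nonswimming lay beyond the 95% limits of the scanner error. The brighter probe lies on the minus strand of chromosome 14 from 64948082 to 64948141.

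None of the other zinc transporters measured on both arrays of a comparison passed 2-fold. The list held the 9 other Slc30a genes, which export zinc or load it into vesicles, and the 13 other Slc39a genes, which bring it into the cytosol. Of these 22 genes, 15 were measured on both arrays in Chlorella swimming against swimming, and 0 passed 2-fold in either direction. Of all genes, 1.37% were at least 2-fold higher there and 4.86% lower. The median log2 ratio of the 15 was 0.04, beside 0.08 for all genes. In swimming against nonswimming 16 were measured and 0 passed (5.14% of all genes higher, 1.07% lower), with a median of -0.05. In Chlorella swimming against nonswimming 15 were measured and 0 passed (2.07% higher, 1.49% lower), with a median of -0.04. In a list of this size, 0 is close to these shares, so nothing particular to zinc transporters is read from it.

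The transporter nearest to 2-fold was Slc39a4, the zinc importer of the gut, at -0.91 ± 0.23 in Chlorella swimming against swimming. It was dim, with signals of 19.15 on the Chlorella swimming array, 44.60 on the swimming and 31.53 on the nonswimming array. Slc30a2, a vesicular zinc transporter, was at 0.51 ± 0.20, with 1716 on the Chlorella swimming array and 1495 on the swimming array. Slc39a8, ZIP8, the importer most related to ZIP14, was well above background on the swimming (24.43) and nonswimming (15.14) arrays but not on the Chlorella swimming array (7.75). By its bound it was at least 2.54-fold lower in Chlorella swimming than in swimming, at signals near background. Slc39a2, with 6.18 on the Chlorella swimming, 5.75 on the swimming and 12.0 on the nonswimming array, was well above background on the nonswimming array alone. Its bounds were at least 1.599-fold lower in Chlorella swimming and at least 2.15-fold lower in swimming than in nonswimming. No array read well above background for Slc30a3, Slc30a8, Slc30a10, Slc39a5 or Slc39a12. Slc39a7, a transporter of the endoplasmic reticulum, was level at 0.15 ± 0.20, with 5546 on the Chlorella swimming array and 6195 on the swimming array.

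**Figure D5:**
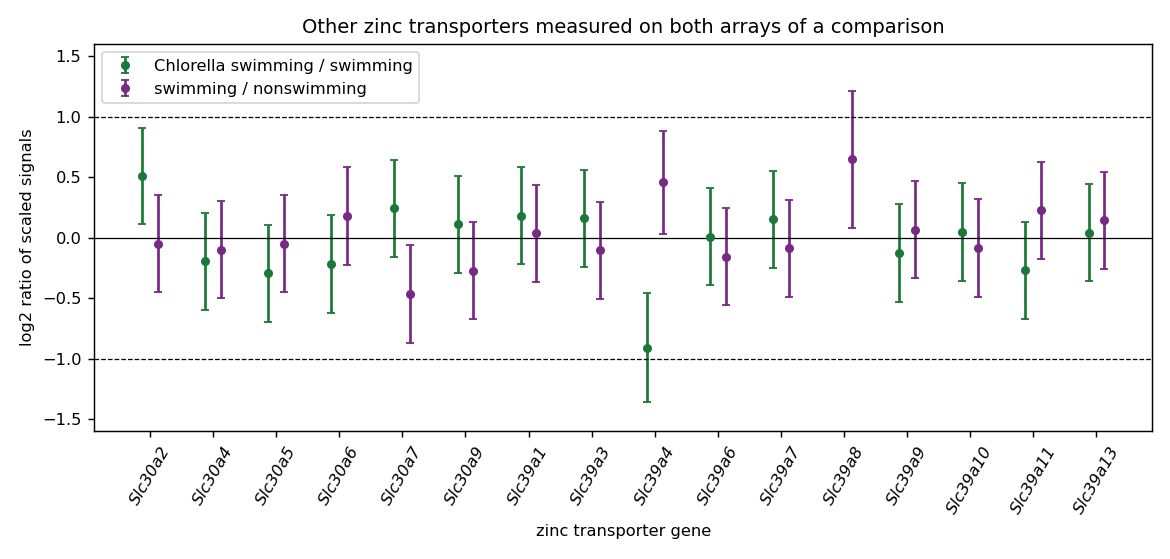
Log2 ratios, with 95% limits of the scanner error, of the other zinc transporter genes measured on both arrays of a comparison. Dashed lines mark 2-fold, and no gene passes them. Slc39a4 lies farthest from 0 in Chlorella swimming against swimming, at -0.91.

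Lists of genes that respond to the known inducers of metallothioneins gave different pictures. Of 24 measured glucocorticoid-responsive genes, which did not include Mt1 or Mt2, 12 were at least 2-fold higher in Chlorella swimming than in swimming (1.37% of all genes) and 1 was lower (4.86%), with a median of 0.94. Arrdc2 (2.44 ± 0.20), Ddit4, an inhibitor of mTORC1 (2.30 ± 0.20), and the clock gene Per1 (1.97 ± 0.20) were farthest above 0. The 1 lower gene was Lcn2, which is also a neutrophil marker (-2.85 ± 0.23). In swimming against nonswimming the median was -0.14, and 1 of 24 was past 2-fold upward (5.14% of all genes) and 2 downward (1.07%). In Chlorella swimming against nonswimming the median was 0.62, and 6 of 24 were past 2-fold upward (2.07%) and 0 downward (1.49%). The receptor gene itself, Nr3c1, was level at 0.08 ± 0.20 in Chlorella swimming against swimming. Earlier results of these arrays had shown this list high, so it is no independent support.

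Genes of the interleukin 6 response were mixed. Of 15 measured, 3 were at least 2-fold higher in Chlorella swimming against swimming (1.37% of all genes) and 0 lower (4.86%), with a median of 0.09. The 3 were the transcription factor genes Cebpd (1.58 ± 0.20), which is also in the glucocorticoid list, Junb (1.51 ± 0.20) and Cebpb (1.05 ± 0.20). Socs3, the feedback inhibitor of this pathway, was at -0.41 ± 0.20 there and at -1.69 ± 0.20 in swimming against nonswimming. In swimming against nonswimming 1 of 15 was past 2-fold upward (5.14% of all genes) and 1 downward (1.07%), with a median of -0.28. In Chlorella swimming against nonswimming 2 of 15 were past 2-fold upward (2.07%) and 1 downward (1.49%), with a median of 0.06. Farthest from 0 there were Junb (2.82 ± 0.20) and Socs3 (-2.10 ± 0.20). Genes of oxidative and metal stress under NRF2 had a median of -0.00 in Chlorella swimming against swimming. There, 0 of 13 measured were at least 2-fold higher, where 1.37% of all genes were. In the other direction 1, G6pdx (-1.35 ± 0.20), was lower, where 4.86% were. Slc7a11, also in this list, was well above background only on the Chlorella swimming array, with a dim signal of 24.24. By its bounds, Chlorella swimming was at least 5.21-fold higher than swimming and at least 4.52-fold higher than nonswimming.

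The genes whose pattern over the 3 arrays was most like that of Mt2 were Il12rb1, Maff, Ddit4, Mt1 and Arl4d. Likeness was the smallest Euclidean distance between log2 values centred on each gene's mean over the 3 arrays, among 13320 named genes well above background on all of them. The distances were 0.23 for Il12rb1, 0.47 for Maff, 0.57 for Ddit4 and for Mt1, and 0.64 for Arl4d. Il12rb1 was dim, with 52.64 on the Chlorella swimming array, 10.09 on the swimming and 8.94 on the nonswimming array. For Mt1 the nearest were Arl4d (0.27), Olfr536 (0.33), Ddit4 (0.40), Mpst (0.45) and Myl10 (0.47). Olfr536 was dim as well, with 31.46 on the Chlorella swimming array, 11.14 on the swimming and 8.39 on the nonswimming array. All distances for Mt1 rest on its brighter probe. Its second probe had another pattern, with 1.28 in Chlorella swimming against swimming and 2.14 in swimming against nonswimming, and was not compared. With 3 arrays such a distance describes these arrays only.

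The muscle label was checked on 12 genes of skeletal muscle, among them Acta1, Ckm and Myh4. All 12 were well above background on every array, and their log2 ratios lay between 0.24 and 0.86 in Chlorella swimming against swimming. Markers of other cell types differed between the arrays at the same time. The summed scaled signal of 10 neutrophil markers was 3.46 on the Chlorella swimming array, 274.5 on the swimming and 16.1 on the nonswimming array, with 7, 10 and 9 of them well above background. In the same order, 9 B cell markers summed to 0.368, 6.30 and 0.558, and 8 erythroid markers to 44.7, 164.5 and 57.3. The sums were 507.6, 831.9 and 403.2 for 10 adipocyte markers, 46.2, 118.2 and 84.2 for 9 macrophage markers, and 90.9, 88.5 and 78.9 for 11 bone markers. The bone sum was mostly Col1a1, a collagen gene that fibroblasts also express, and the other 10 bone markers summed to 7.04, 25.5 and 10.6. Of the 10 bone markers measured in Chlorella swimming against swimming, 5 were at least 2-fold lower (4.86% of all genes) and 0 higher (1.37%). Sp7, not well above background on the Chlorella swimming array, had a bound of at least 2.36-fold lower there than on the swimming array. The macrophage sum was mostly Lyz2, which neutrophils also express, and the other 8 macrophage markers summed to 6.30, 9.45 and 10.6.

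With or without the brightest marker of each list, the neutrophil, B cell, erythroid and adipocyte sums were highest on the swimming array. In the same way, the neutrophil, B cell, erythroid and macrophage sums were lowest on the Chlorella swimming array. Bone followed both patterns only without Col1a1, and without Lyz2 the macrophage sum was highest on the nonswimming array. The Mt1 and Mt2 signals were highest on the Chlorella swimming array. Ms4a1, Cd79a, Elane, Hemgn and Klf1 were among the markers not well above background there. Liver markers, from a tissue rich in metallothionein, summed to 13.8, 16.6 and 23.7 in the same order of arrays, and kidney markers to 8.66, 36.7 and 5.91. For Mt4, the 12 keratinocyte markers summed to 2.66, 2.58 and 9.07, with 6, 7 and 8 of them well above background and Krt1, Flg, Dsg1a and Ivl on no array. Krt5, a keratin of basal cells, had a signal of 6.88 on the Chlorella swimming array, 12.7 on the swimming and 283.2 on the nonswimming array, and Lor, loricrin, had 9.498 on the Chlorella swimming array, 14.1 on the swimming and 392.5 on the nonswimming array. For Mt3, the 7 brain markers summed to 6.40, 5.92 and 7.24, nearly all of it Mbp and Aqp4, which were well above background on all 3 arrays. Rbfox3 was so on the swimming and nonswimming arrays, Nefl on the nonswimming array alone, and Gfap, Snap25 and Syt1 on none. The part of these cell types in the values was not tested.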

How the data were processed

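Per the labels' protocols, total RNA of muscle was pooled from 10 mice per group and labelled with Cy3. The deposited scanner files hold intensity values. Per the submitters' processing notes the authors used Agilent Feature Extraction 9.5, which corrects the processed signal for background and spatial trend and gives it an error and flags. The 3 arrays lay on 1 slide and share 1 scan, per the file headers. The authors' deposited value table holds log2 values of 13683 spots, with column medians of 0.0103 for Chlorella swimming, -0.00524 for swimming and 0.00760 for nonswimming. Its differences between columns match the scanner files in scale and direction, what the values are centred on stays unknown, and only such differences were used.

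Control and outlier spots were left out, spots of a probe were averaged on the log2 scale, and log2 signals were set against the array's 75th percentile (Python 3.11.15, numpy 2.4.6, pandas 2.3.3). Members were taken by the gene name in the files, and other genes were named through RefSeq accession, symbol or older symbol, with 8454 probes keeping the file's name. With 1 array per group no p-value was computed, and precision is limited by the number of arrays. The calls were tried on simulated data that held the scanner error alone. Changes were planted only in probes well above background on both arrays of a comparison. Over the 3 comparisons, log2 changes of 1.5 were recovered for 96% to 99% of the planted probes, and changes of 3 for 100%. Differences between mice or pools were not simulated, so this does not stand in for replicates. Alternatives used limma 3.58.1 in R 4.3.3. All 7 members were named in the text. Of the other genes, list members past 2-fold (at most the 3 farthest each way), any zinc transporter, and the 5 genes nearest to Mt1 and to Mt2 could be named. Nr3c1, Cp, Cox17, Trf, Slc7a11, the neighbours on chromosome 8 and the markers named were chosen after their values were seen. The members, lists and rule were chosen with earlier results of these data known.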

Additional observations from a re-analysis of the deposited data

How the results depend on the processing

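The count of 2 members past 2-fold was kept in both comparisons with the Chlorella swimming array under all 11 alternatives: normexp and no background subtraction; quantile, cyclic loess, median and detected-probe percentile scaling; a looser and a stricter signal filter; averaged probes; the authors' table; and the 95% limit of the scanner error. In swimming against nonswimming the count of 0 became 1, Mt1, with the mean over probes and with the authors' table. Those 2 settings also moved the Mt1 log2 ratio, to 1.64 and 1.62 in Chlorella swimming against swimming and to 3.03 and 3.01 in Chlorella swimming against nonswimming. The authors' deposited table gave Mt1 as the mean over its probes. The mean over probes also moved Mt4, to 0.67 in Chlorella swimming against swimming and 0.68 in Chlorella swimming against nonswimming. It moved Mtf1 to -0.36 in swimming against nonswimming and -0.23 in Chlorella swimming against nonswimming. This mean took in probes not well above background, namely the second Mt4 probe and the dimmest Mtf1 probe. Over the 2 Mtf1 probes well above background, the mean was -0.13 and -0.16 in these 2 comparisons. In Chlorella swimming against nonswimming Slc30a1 moved to -0.26 with the mean over probes and to -0.28 with the authors' table. The Mt2 ratio ranged from 2.61 (normexp) to 2.95 (median centring) in Chlorella swimming against swimming, and from 3.00 to 3.15 in Chlorella swimming against nonswimming. Under median centring the all-gene median shifted by over 0.1, to 0.21 from 0.08 in Chlorella swimming against swimming and to -0.19 from -0.04 in swimming against nonswimming. Mt3 and Mtf1 in Chlorella swimming against swimming changed sign between settings (-0.06 to 0.13 and -0.05 to 0.22). Over the alternatives, genes at least 2-fold different numbered 45 to 1233 higher (212 in the main setting) and 279 to 1998 lower (754) in Chlorella swimming against swimming. They numbered 324 to 2104 higher (805) and 40 to 1255 lower (167) in swimming against nonswimming. In Chlorella swimming against nonswimming they numbered 89 to 1395 higher (318) and 58 to 1266 lower (228). No paired analysis was possible because each group has 1 array. Mt4, Slc39a4, Slc39a8 and the dimmer Slc39a14 probe lie near background, which limits their ratios.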

Other observations

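Among copper and iron genes, as among the zinc transporters, no measured gene passed 2-fold. Of all genes, 1.37% were at least 2-fold higher in Chlorella swimming against swimming and 4.86% lower. The shares were 5.14% and 1.07% in swimming against nonswimming, and 2.07% and 1.49% in Chlorella swimming against nonswimming. In lists this short, 0 is close to these shares. Of 12 measured copper genes, 0 passed 2-fold in any of the 3 comparisons, and in Chlorella swimming against swimming they lay between -0.55 for the copper-carrying plasma protein gene Cp and 0.38 for Cox17, a copper chaperone of mitochondria. Of 10 measured iron genes, 0 passed 2-fold in Chlorella swimming against swimming, with a median log2 ratio of 0.03. Trf, transferrin, was farthest from 0 there at -0.82 ± 0.20. The same gene was at 0.35 ± 0.20 in swimming against nonswimming. Slc39a8, also in the iron list, was not well above background on the Chlorella swimming array. By its bound it was at least 2.54-fold lower there than on the swimming array. Heat shock genes had a median of 0.30 in Chlorella swimming against swimming and -0.38 in swimming against nonswimming, with 0 of 9 past 2-fold in either.

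The authors' deposited table holds 1 row per gene name, 13670 among probes with no outlier flag. For 6558 genes with 1 probe, well above background on all arrays, its difference in Chlorella swimming against swimming was within 0.01 of the scanner value plus a constant of -0.03 for 99.4%. For 4053 genes with several probes, all well above background, 13.5% were within 0.01 of their own probe's difference and 75.5% within 0.01 of the mean over the gene's probes. Among the members, the authors' deposited table gave Mt1, Mtf1, Slc30a1 and Slc39a14 as that mean over their 2 measured probes, to within 0.01 after the constant. The Mt4 difference there, 0.26 after the constant, lay 0.17 above that of its brighter probe, and the second Mt4 probe was well above background only on the Chlorella swimming array. In that table the Mt1 value therefore holds the probe printed 10 times and the dimmer single-spot probe with equal weight, whose log2 ratios in swimming against nonswimming were 0.63 and 2.14.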
